A study of Mus musculus with 24 samples.

Results

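A set of 10 genes that mark immature and transitional B cells was followed in splenic B cells of control mice and of mice labelled as deficient in Tet2 and Tet3. The genes, Cd93, Cd24a, Vpreb1, Vpreb3, Igll1, Rag1, Rag2, Dntt, Il7r and Sox4, were taken by gene symbol from 23234 genes measured by RNA-seq, and all 10 were found in both tables. The list was drawn up by known function, with earlier results of these data known.

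The libraries came from primary B cells of C57BL/6 mouse spleen, freshly isolated and sorted by surface markers. The 12 libraries used form 4 groups of 3. Control CD93-negative cells (CTL CD93-) were compared with CD93-negative cells titled Tet DKO, and control CD93-positive cells (CTL CD93+) with CD93-positive cells titled Tet KO. Both knockout groups carry the genotype label Tet2/Tet3-deficient and are called DKO-labelled here. The enzymes TET2 and TET3 are dioxygenases acting on methylated cytosine in DNA, which they oxidise. The labels do not give the way the genes were deleted, the cells in which they were deleted or the treatment or age of the animals. Nor do they say whether the 3 replicates of a group were separate mice, and the p-values cover only how far these samples spread, which may be technical. The remaining 12 samples, of cells sorted on CD23 and CD21 as well, are not analysed here.

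B cells rearrange their antigen receptor genes in stages. Rag1 and Rag2 cut the gene segments, terminal transferase (Dntt) adds nucleotides at the joins, and a rearranged heavy chain is first displayed with a surrogate light chain made of Vpreb and Igll1 (lambda 5) proteins. Signals through the interleukin-7 receptor (Il7r) keep these early cells alive and dividing. Cells that leave the marrow still carry CD93 and much CD24, then lose CD93 and carry less CD24 as they mature in the spleen.

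The transcript values of Tet2 and Tet3 do not check the labels by themselves, since a gene can be inactivated by removing a few exons while the rest is still read. Values are FPKM, fragments scaled to transcript length and to the mapped fragments of the library. In CD93-negative cells Tet2 stood at 6.36, 8.11 and 8.79 FPKM in the controls and at 9.94, 8.15 and 9.40 in the DKO-labelled libraries, while Tet3 read 14.8, 20.1 and 19.0 against 15.7, 15.6 and 14.9. In CD93-positive cells Tet2 stood at 3.18, 3.47 and 3.10 against 3.55, 2.29 and 1.80 FPKM. Tet3 there stood at 12.1, 13.0 and 14.1 against 9.92, 7.67 and 3.84 FPKM. Neither gene was absent from any library. With the authors' scaling, Tet3 in CD93-positive cells was lower in each DKO-labelled library than in every control, and after the rescaling described next the same held for Tet3 in CD93-negative cells, at 18.6 to 19.6 in control and 13.4 to 14.8 in DKO-labelled libraries.

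The depth of the libraries is unknown, because FPKM keeps no counts. The FPKM of all genes summed to between 342368 and 463987 in the CD93-negative libraries. In the CD93-positive libraries the sum was 523898 to 597968, except in DKO-labelled replicate 3, where it was 309359. With the authors' scaling this library had the lowest value of the 6 for each of the 10 genes. The differences of the 10 genes are therefore given with the authors' scaling and after rescaling each table so that all its libraries share the same upper quartile over tested genes. The rescaling moved the median log2 difference of all tested genes from 0.11 to -0.083 in CD93-negative and from -0.22 to -0.011 in CD93-positive cells. By Xist and Ddx3y, the 6 CD93-negative libraries were male. Among the CD93-positive libraries control replicates 1 and 2 were male and control replicate 3 and all 3 DKO-labelled libraries were female, so that only 1 control shares its sex with the DKO-labelled group.

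Promoter sequences are shown for the 4 genes whose values are described most closely below: Rag1, Il7r and Sox4, which were called lower after rescaling in CD93-positive cells, and Vpreb3, which with Sox4 differed in CD93-negative cells. Each is the 250 bases before the transcription start, 5′ to 3′ on the strand of the gene, from the RefSeq promoter table of build GRCm38.p6. Capitals mark CpG, the dinucleotide whose cytosine is methylated in mammals and oxidised by TET proteins.
Rag1, chr2:101649533-101649782 (strand -): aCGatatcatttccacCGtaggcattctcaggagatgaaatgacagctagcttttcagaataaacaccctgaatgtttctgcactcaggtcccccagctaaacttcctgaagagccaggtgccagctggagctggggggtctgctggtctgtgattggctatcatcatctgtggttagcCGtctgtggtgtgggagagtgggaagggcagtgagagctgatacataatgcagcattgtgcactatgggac
Il7r, chr15:9529877-9530126 (strand -): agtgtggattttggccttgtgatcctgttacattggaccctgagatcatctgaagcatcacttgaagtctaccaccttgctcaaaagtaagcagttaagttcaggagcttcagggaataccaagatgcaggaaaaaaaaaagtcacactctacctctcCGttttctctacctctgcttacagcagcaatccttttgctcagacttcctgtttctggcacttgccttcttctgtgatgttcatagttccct
Sox4, chr13:28953700-28953949 (strand -): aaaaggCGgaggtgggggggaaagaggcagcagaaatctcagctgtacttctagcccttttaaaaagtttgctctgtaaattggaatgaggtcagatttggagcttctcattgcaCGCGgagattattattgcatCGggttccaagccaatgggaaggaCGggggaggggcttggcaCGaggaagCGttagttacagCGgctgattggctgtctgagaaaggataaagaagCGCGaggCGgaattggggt
Vpreb3, chr10:75948050-75948299 (strand +): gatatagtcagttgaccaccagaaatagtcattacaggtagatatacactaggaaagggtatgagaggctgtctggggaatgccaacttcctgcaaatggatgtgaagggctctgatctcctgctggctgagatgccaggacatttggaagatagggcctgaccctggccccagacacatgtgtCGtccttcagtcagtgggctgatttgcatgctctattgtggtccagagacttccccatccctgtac
Of the 10 genes, 8 had an entry in that table. The Sox4 promoter holds 11 CpG, Rag1 and Rag2 hold 3 each, Vpreb1 and Dntt hold 2 each, and Vpreb3, Igll1 and Il7r hold 1 each. Over 32851 promoters of the same length the median is 6 CpG and 92.1% hold at least 1, so Sox4 alone among the 8 lies above the median. The E-box letters CANNTG, the core bound by E proteins such as Tcf3 and the same on both strands, occur at least once in each of the 8 promoters and 5 times in that of Vpreb3, against 66.2% of all promoters with at least 1. These are counts of letters. Neither methylation nor binding was measured in the data used here.

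All 10 genes read higher in every CD93-positive library than in any CD93-negative library. In control CD93-positive cells Cd93 itself read 53.9 ± 5.22 FPKM (mean ± SD, n = 3), and in control CD93-negative cells 4.34 ± 0.408. The mean of the CD93-positive controls was 30.5 times that of the CD93-negative controls for Dntt, 21.8 times for Il7r and 13.6 times for Sox4. It was 12.4 times for Cd93, 10.6 times for Vpreb3 and 5.27 times for Cd24a. The Rag1 ratio was 2838, but its control CD93-negative values were close to 0, at 0.0307 to 0.0534 FPKM, so its size is uncertain. In DKO-labelled libraries the Rag1 ratio was 553. Vpreb1, Igll1 and Rag2 were listed at 0 in at least 1 control CD93-negative library, so no ratio is given. The 2 tables were scaled separately, so these ratios are descriptions without a test. In CD93-positive controls Cd24a ranked above 99.6% of all genes of each library and Rag1 ranked at 97.2% or above. Defining B cell genes were high in all libraries. The summed FPKM of Cd79a, Cd79b, Ms4a1, Pax5 and Cd22 was 2329 to 2847 in control and 2709 to 2855 in DKO-labelled CD93-negative libraries. In CD93-positive libraries it was 2778 to 3653 in control and 1340 to 2832 in DKO-labelled ones.

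**Figure D1:**
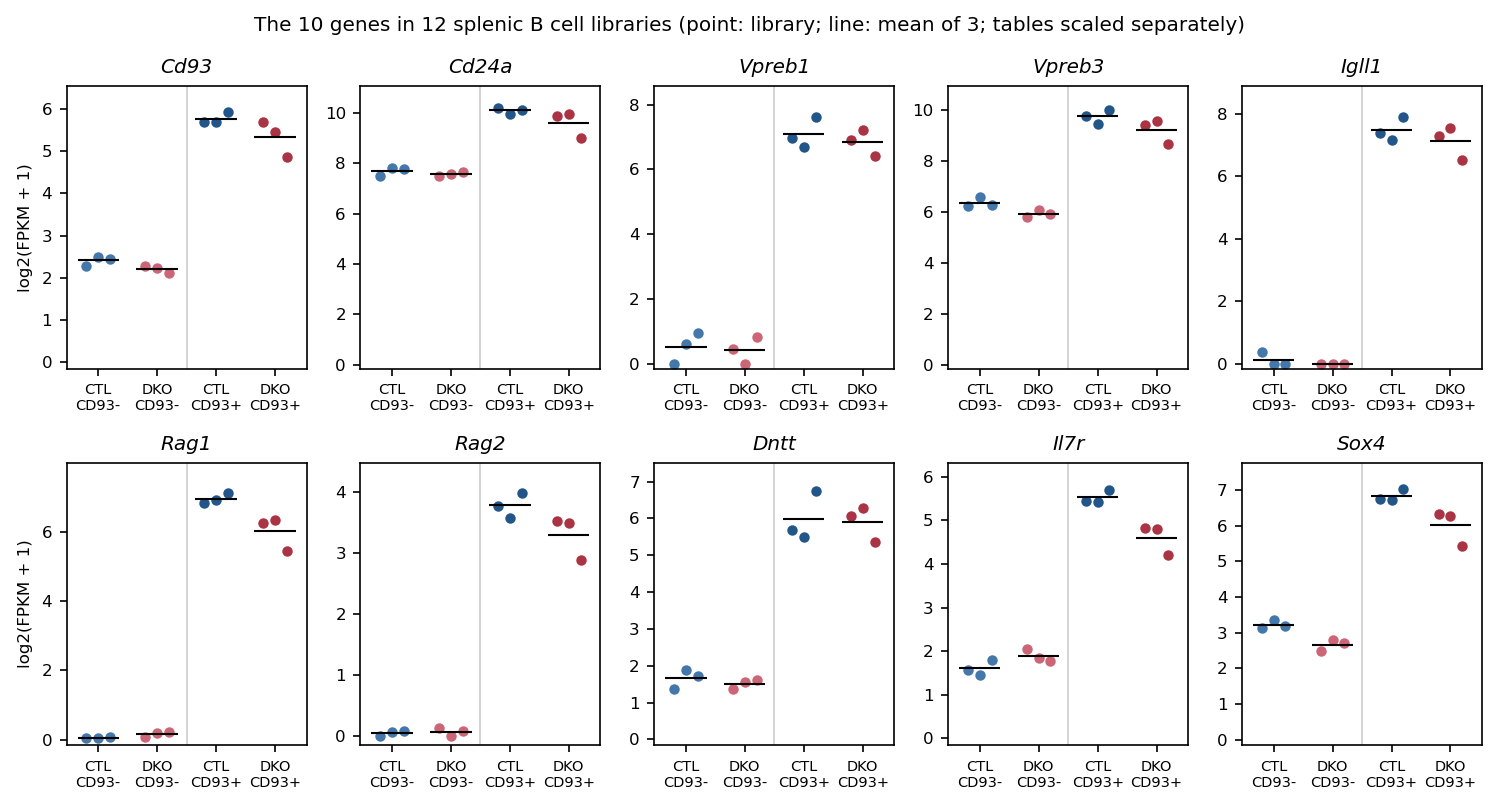
FPKM of each of the 10 genes in each of the 12 libraries, on a log2(FPKM + 1) axis, with points for libraries coloured by group and a line for the mean of the 3 log2 values of a group. The CD93-positive libraries lie above the CD93-negative ones for all 10 genes, with Rag1 at 42.9 to 138 FPKM in the former and at 0.0307 to 0.160 in the latter.

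In CD93-negative cells, sorted for the absence of CD93, 6 of the 10 genes could be tested. The stage of these cells was not otherwise established. Sox4 and Vpreb3 fell in the DKO-labelled cells. Cd93, Cd24a and Dntt had lower means and Il7r a higher one, none of which passed the test with the authors' scaling. The 4 genes Rag1, Rag2, Vpreb1 and Igll1 were near 0 in both genotypes. Fewer cells of a type and less RNA per cell cannot be told apart in such bulk samples.

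Sox4, a transcription factor of lymphoid progenitors, stood at 7.78, 9.30 and 8.04 FPKM in the controls and at 4.63, 5.88 and 5.59 in DKO-labelled CD93-negative libraries. Every DKO-labelled value lay below every control value. The log2 difference was -0.56 (SE 0.14, limma adjusted p = 0.0131), with the DKO-labelled mean at 64.1% of the control mean. After rescaling it was -0.75 (adjusted p = 0.00148). Without DKO-labelled replicate 1 the call was lost with the authors' scaling (-0.47, adjusted p = 0.0817), and with the rescaling no left-out library ended it.

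Vpreb3, which encodes a relative of Vpreb1 that associates with immunoglobulin chains inside the cell, stood at 74.4, 93.8 and 75.6 FPKM in control libraries. In the DKO-labelled libraries it stood at 53.7, 65.6 and 59.7 FPKM, below all 3 controls. The log2 difference was -0.44 (limma adjusted p = 0.0428) with the authors' scaling and -0.66 (adjusted p = 0.00198) after rescaling. With the authors' scaling the call was lost without control replicate 2 (-0.33), control replicate 3 (-0.48) or any 1 of the DKO-labelled replicates (-0.36, -0.51 and -0.44), with adjusted p from 0.0669 to 0.204. It was also lost without the filter (adjusted p = 0.0911) and without the trend (adjusted p = 0.0523).

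The markers that name the stage differed less. Cd93 stood at 3.88, 4.65 and 4.49 FPKM in the controls and at 3.85, 3.68 and 3.32 in DKO-labelled CD93-negative libraries, so the groups just failed to overlap. The log2 difference was -0.21 (limma adjusted p = 0.330). Cd24a, a glycoprotein of the surface that is densest on immature cells, stood at 180, 226 and 220 against 181, 192 and 199 FPKM (-0.12, adjusted p = 0.583). After rescaling both were called lower, Cd93 by -0.39 (adjusted p = 0.0140) and Cd24a by -0.35 (adjusted p = 0.00104), with rescaled Cd24a at 220 to 227 in control and 170 to 180 in DKO-labelled libraries.

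Dntt stood at 1.59, 2.71 and 2.31 against 1.60, 1.96 and 2.06 FPKM, with overlapping groups and a log2 difference of -0.15 (limma adjusted p = 0.606). Il7r stood at 1.99, 1.74 and 2.50 against 3.13, 2.57 and 2.43 FPKM (0.27, adjusted p = 0.251). After rescaling neither was called, at -0.29 (adjusted p = 0.0846) for Dntt and 0.11 (adjusted p = 0.556) for Il7r. Neither scaling placed these genes past the threshold, which does not show that they were alike.

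The genes used up to the pre-B cell stage were close to 0 in CD93-negative cells and did not pass the filter of 1 FPKM in 3 libraries. Rag1 read 0.0307 to 0.0534 FPKM in control and 0.0477 to 0.160 in DKO-labelled libraries. Rag2 lay between 0 and 0.0966 FPKM in the 6 libraries and Vpreb1 between 0 and 0.916. Igll1 was listed at 0.297 FPKM in control replicate 1 and at 0 in the other 5. These 4 genes were not tested.

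Of the 6 genes tested in CD93-negative cells, 2 were called lower and none higher with the authors' scaling, where 21.5% of all tested genes were called, 18.7% higher and 2.79% lower. At an unadjusted limma p under 0.05 the same count was 2, and the share of all genes at that level was not computed. After rescaling 4 of 6 were called lower and none higher, where 40.9% of all genes were called, 17.1% higher and 23.8% lower. The median log2 difference of the 6 was -0.18 beside 0.11 over all genes, and -0.37 beside -0.083 after rescaling.

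**Figure D2:**
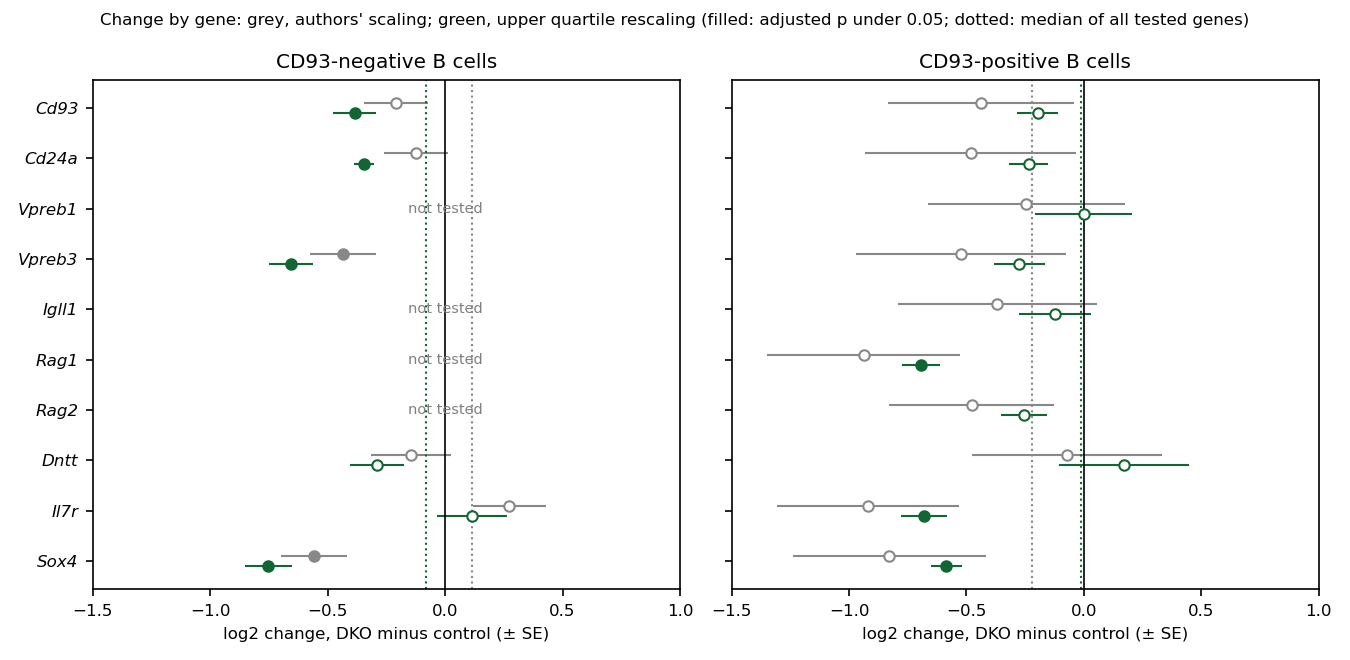
Log2 difference, DKO-labelled minus control, of each of the 10 genes in CD93-negative and CD93-positive cells, with the authors' scaling and after upper quartile rescaling. Points are limma estimates and lines their standard errors, with filled points for adjusted p under 0.05. Filled points are Sox4 and Vpreb3 in CD93-negative cells with the authors' scaling, joined after rescaling by Cd93 and Cd24a there and by Rag1, Il7r and Sox4 in CD93-positive cells.

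In CD93-positive cells, where these genes are highly expressed, all 10 were tested. Rag1, Il7r and Sox4 were lower in each of the 3 DKO-labelled libraries than in every control, and were called after rescaling but not with the authors' scaling. The surrogate light chain genes and Dntt were not called with either scaling.

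Rag1, the catalytic subunit of the recombinase, stood at 113, 119 and 138 FPKM in the controls and at 75.1, 79.5 and 42.9 in DKO-labelled CD93-positive libraries. The lowest value was that of DKO-labelled replicate 3, the library with the low sum. Rescaled, Rag1 stood at 102, 118 and 118 against 64.8, 71.3 and 71.6, with the DKO-labelled mean at 61.4% of the control mean. The log2 difference was -0.69 (SE 0.082, limma adjusted p = 0.00359) after rescaling and -0.94 (SE 0.41, adjusted p = 0.310) with the authors' scaling.

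Il7r, the alpha chain of the interleukin-7 receptor, stood at 42.6, 42.0 and 51.0 FPKM in the controls and at 27.1, 26.8 and 17.4 in DKO-labelled libraries. Rescaled values were 38.7, 41.9 and 43.6 against 23.4, 24.1 and 29.1, so that replicate 3 became the highest of the DKO-labelled libraries and still lay below all controls. This is a log2 difference of -0.68 (SE 0.099, limma adjusted p = 0.00716) after rescaling and -0.92 (adjusted p = 0.267) with the authors' scaling.

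Sox4 stood at 107, 105 and 130 FPKM in the controls and at 79.1, 75.6 and 42.3 in DKO-labelled libraries. Rescaled values were 97.0, 104 and 111 against 68.3, 67.9 and 70.7, with the DKO-labelled libraries close together. It differed by -0.58 on the log2 scale (SE 0.068, limma adjusted p = 0.00344) after rescaling and -0.83 (adjusted p = 0.398) with the authors' scaling.

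With the authors' scaling, leaving out DKO-labelled replicate 3 gave calls for Rag1 (-0.66, limma adjusted p = 0.0371) and Il7r (-0.72, adjusted p = 0.0226) and none for Sox4 (-0.54, adjusted p = 0.0698). Il7r was also called with sample quality weights (-0.68, adjusted p = 0.0444). All 3 were called in 9 of 9 fits on rescaled values, which used all libraries, left out each in turn, added the replicate number as a block or added sex as a covariate. With sex as a covariate the rescaled differences were -0.76 for Rag1 (adjusted p = 0.0276), -0.76 for Il7r (adjusted p = 0.0437) and -0.68 for Sox4 (adjusted p = 0.0174). That covariate rests on the 1 female control, whose rescaled values of 118, 43.6 and 111 all lie above the female DKO-labelled libraries.

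The ratio of 2 genes within a library does not depend on how the library was scaled. Rag1 divided by Cd93 was 2.21, 2.34 and 2.30 in control and 1.49, 1.84 and 1.53 in DKO-labelled CD93-positive libraries. Il7r divided by Cd93 was 0.838, 0.826 and 0.850 against 0.537, 0.622 and 0.622. Sox4 divided by Cd93 was 2.10, 2.06 and 2.17 against 1.57, 1.75 and 1.51. The groups did not overlap for these 3 ratios and overlapped for the ratios of the other 6 genes to Cd93. Set against Cd79a, which encodes a signalling chain of the B cell receptor, Rag1 and Sox4 kept groups without overlap and Il7r did not, at 0.0305 to 0.0350 in control and 0.0223 to 0.0305 in DKO-labelled libraries. Against Cd79b, the partner of Cd79a, all 3 were without overlap. Lower values were not particular to these 3 genes. After rescaling, 12 of 16 early B lineage transcription factors, Sox4 among them, were called lower in these cells and none higher. Pax5 was at -0.58 (limma adjusted p = 0.0137) and Bach2 at -0.82 (adjusted p = 0.00560), and ratios to those 2 genes were not taken.

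**Figure D3:**
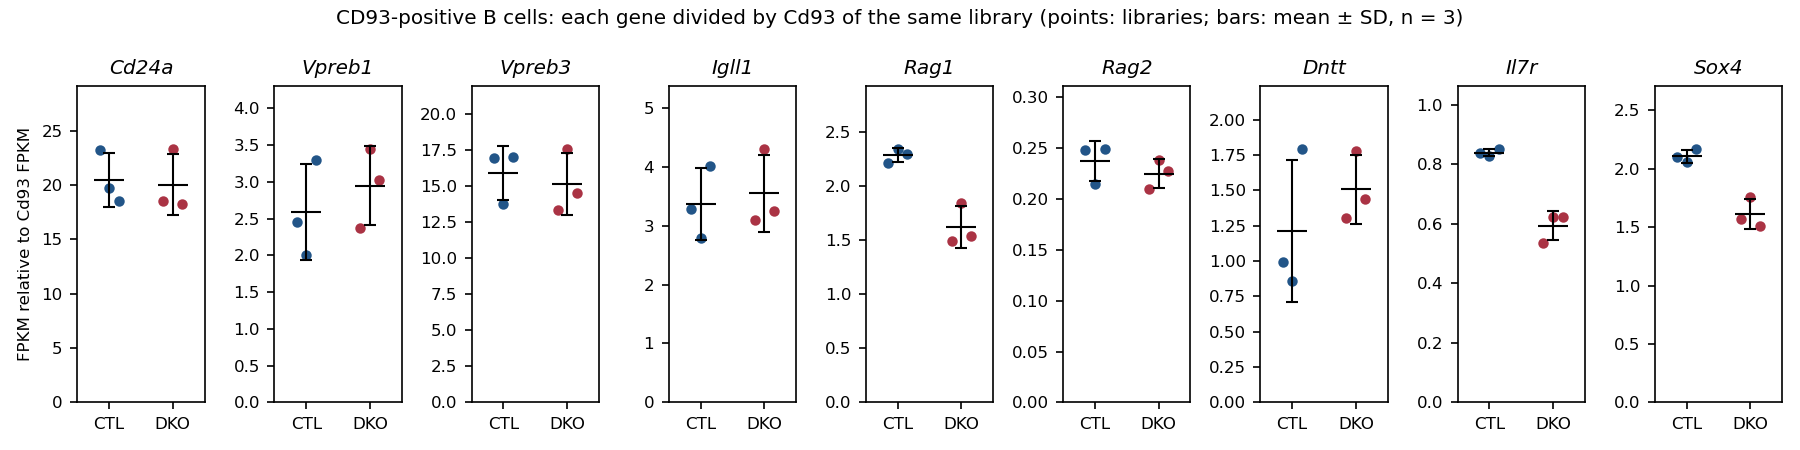
FPKM of each gene divided by that of Cd93 in the same CD93-positive library, per library, with bars for the mean and SD of 3. Only for Rag1, Il7r and Sox4 do all 3 DKO-labelled libraries lie below all 3 controls, as for Il7r at 0.537 to 0.622 against 0.826 to 0.850.

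Rag2, the partner of Rag1 encoded beside it in the opposite orientation, stood at 12.6, 10.9 and 14.9 FPKM in the controls and at 10.6, 10.2 and 6.35 in DKO-labelled libraries. Its log2 difference was -0.25 (limma adjusted p = 0.109) after rescaling and -0.48 (adjusted p = 0.627) with the authors' scaling. Rag1 divided by Rag2 was 9.68 ± 1.06 (SD, n = 3) in control and 7.21 ± 0.507 in DKO-labelled libraries, at 8.90, 10.9 and 9.24 against 7.11, 7.76 and 6.76. The difference between the 2 genes was not tested.

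Dntt, the polymerase that adds untemplated nucleotides, stood at 50.5, 43.8 and 107 FPKM in the controls and at 65.9, 76.6 and 40.3 in DKO-labelled libraries. Control replicate 3, the female one, was the highest of the 6. For Dntt the log2 difference was 0.17 (limma adjusted p = 0.690) after rescaling and -0.073 (adjusted p = 0.966) with the authors' scaling, so its direction depends on the scaling. After rescaling and without control replicate 3, Dntt was called higher, by 0.52 (adjusted p = 0.0201). With sex as a covariate it was at -0.51 (adjusted p = 0.0810) after rescaling, with 91.7 in the female control against 56.9 to 68.8 in the DKO-labelled libraries. Genotype and sex cannot be told apart for this gene.

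The surrogate light chain genes were highest in the same control library. Vpreb1 stood at 125, 102 and 198 FPKM in the controls and at 120, 148 and 84.5 in DKO-labelled libraries, with a log2 difference of -0.00019 (limma adjusted p = 0.9995) after rescaling and -0.25 (adjusted p = 0.857) with the authors' scaling. Igll1 stood at 167, 142 and 240 against 157, 185 and 91.0 FPKM, with differences of -0.12 (adjusted p = 0.599) and -0.37 (adjusted p = 0.767) in the same order. In both genes control replicate 3 was highest and the groups overlapped. Vpreb1 divided by Igll1, the pair that forms the surrogate light chain, was 0.747, 0.720 and 0.822 against 0.768, 0.801 and 0.928. Vpreb2, a near copy of Vpreb1 whose transcript is 97.4% identical over 759 aligned bases in GENCODE M21, stood at 0.471 to 0.587 of Vpreb1, and reads of the pair may have been divided between them in a way the sources used here do not state.

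Vpreb3 stood at 861, 698 and 1021 FPKM in the controls and at 675, 757 and 405 in DKO-labelled CD93-positive libraries. After rescaling the difference was -0.27 (limma adjusted p = 0.122), and -0.52 (adjusted p = 0.689) with the authors' scaling. The best local alignment of its transcript with that of Vpreb1 covered 36 bases, 25 of them identical.

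Cd93 and Cd24a, the surface markers, were not called in CD93-positive cells with either scaling. Cd93, the antigen of the sort, stood at 50.9, 50.9 and 59.9 FPKM against 50.5, 43.1 and 28.0, with a rescaled difference of -0.20 (limma adjusted p = 0.153) and one of -0.44 (adjusted p = 0.704) with the authors' scaling. Cd24a stood at 1183, 1002 and 1110 against 937, 1005 and 512 FPKM. It differed by -0.48 (adjusted p = 0.713) with the authors' scaling and by -0.24 (adjusted p = 0.0882) after rescaling, with rescaled values of 949 to 1074 in control and 809 to 902 in DKO-labelled libraries. Quantile normalization called Cd24a (-0.47, adjusted p = 0.00422) and Vpreb3 (-0.55, adjusted p = 0.00407) lower as well.

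With the authors' scaling limma called 0 of the 10 genes in CD93-positive cells. Of all tested genes 3.21% were called, 1.67% higher and 1.54% lower. After rescaling 3 of 10 were called, all lower, where 20.7% of all genes were called, 11.4% higher and 9.34% lower. At an unadjusted limma p under 0.05 the counts were 3 of 10 with the authors' scaling and 6 of 10 after rescaling. The share of all genes at that unadjusted level was not computed, so these 2 counts have no background. The median of the 10 was -0.48 beside -0.22 over all genes, and -0.25 beside -0.011 after rescaling.

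**Figure D4:**
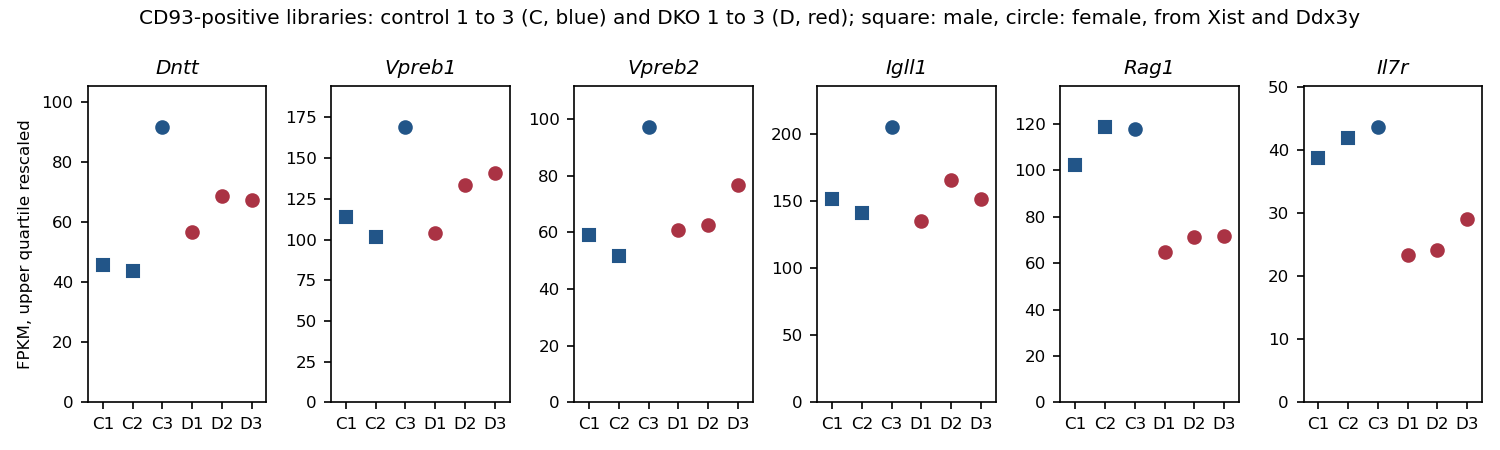
FPKM after upper quartile rescaling of Dntt, Vpreb1, Vpreb2, Igll1, Rag1 and Il7r in the 6 CD93-positive libraries, controls in blue and DKO-labelled ones in red, with squares for male and circles for female libraries. Control replicate 3, the female control, is the highest for the first 4 genes (Dntt 91.7 against 43.6 to 68.8 in the other 5), while for Rag1 and Il7r all 3 controls lie above all 3 DKO-labelled libraries.

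The 10 genes were also compared pairwise over the 6 CD93-positive libraries. On rescaled log2 values Pearson's r was 0.974 for Rag1 with Il7r, 0.988 for Rag1 with Sox4 and 0.976 for Il7r with Sox4. It was 0.904 for Vpreb1 with Igll1 and 0.913 for Vpreb1 with Dntt. With Rag1, Il7r and Sox4, r was -0.12 to -0.085 for Dntt, 0.11 to 0.17 for Vpreb1 and 0.39 to 0.42 for Igll1. Vpreb3 was at 0.78 to 0.80 with those 3 genes and at 0.81 with Igll1, 0.62 with Vpreb1 and 0.35 with Dntt. Against the same 3 genes, Rag2 was at 0.84 to 0.92, Cd93 at 0.77 to 0.86 and Cd24a at 0.77 to 0.81. The 6 libraries share the genotype contrast and the uneven sexes, so these values are descriptions. Of 8113 genes with a mean of at least 5 FPKM, those most like Rag1 were Dync1li2, Acap2 and Heatr6 (r = 0.9998, 0.997 and 0.997). Those most like Il7r were Smarcd1, Lmbrd1 and Gas7 (0.998 each), and those most like Sox4 were Myo1c, Nnt and Cpm (0.999, 0.998 and 0.998).

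Other genes of the same pathways were read from lists, whose counts stand beside the shares called among all genes: 18.7% higher and 2.79% lower in CD93-negative cells, and 17.1% and 23.8% after rescaling. In CD93-positive cells the shares were 1.67% and 1.54%, and 11.4% and 9.34% after rescaling. All these shares are at the adjusted threshold. Counts at an unadjusted p, here and for the markers below, have no share of all genes beside them. Of 12 genes of the surrogate light chain and pre-B receptor pathway, 9 were tested in CD93-negative cells, and 1, Vpreb3, was called lower and none higher. Rescaling made it 4 lower, with Blk, a kinase of the receptor (-0.34, limma adjusted p = 0.00151), Cd79a (-0.23, adjusted p = 0.0123) and the kinase Btk (-0.20, adjusted p = 0.0353). In CD93-positive cells limma called 0 of 12 with the authors' scaling, and 0 were at an unadjusted p under 0.05. After rescaling 3 were called lower and none higher, the kinases Syk (-0.43, adjusted p = 0.0237) and Lyn (-0.35, adjusted p = 0.0146) and the signalling chain Cd79a (-0.36, adjusted p = 0.0344), and 6 were at an unadjusted p under 0.05.

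Of the recombination and end joining genes, 3 of 13 tested in CD93-negative cells were called higher, which is near the 18.7% of all genes, and none lower. The 3 were Hmgb2 (1.63, limma adjusted p = 2.51e-05) and Hmgb1 (0.66, adjusted p = 0.00376), chromatin proteins that assist the recombinase among other roles, and the polymerase gene Polm (0.46, adjusted p = 0.0233). Rescaling left 3 higher and made 2 lower, Prkdc and Dclre1c. In CD93-positive cells none of 15 was called with the authors' scaling and 2 were at an unadjusted p under 0.05. After rescaling Polm (-0.92, adjusted p = 0.00302) and Rag1 were called lower and Xrcc5 higher (0.41, adjusted p = 0.0347). The difference between populations was not tested, since the tables were scaled separately.

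Of the interleukin-7 receptor signalling list, 5 of 13 tested genes were called higher in CD93-negative cells and none lower, while Il7r itself was not called. Socs1, an inhibitor of cytokine signalling, stood at 4.09 ± 0.285 FPKM in control and 49.3 ± 5.74 in DKO-labelled libraries (SD, n = 3, 3.30, limma adjusted p = 1.17e-08). Socs3, of the same family, stood at 3.49 ± 0.362 against 25.0 ± 0.966 (2.54, adjusted p = 7.85e-08). The kinases Jak3 (1.04, adjusted p = 0.000106) and Pim1 (1.02, adjusted p = 0.000179) were also higher. Rescaling gave 5 higher and 4 lower. In CD93-positive cells 1 of 14 was called higher, Socs3 (1.37, adjusted p = 0.000880). After rescaling 3 were higher, Socs3, Jak3 and Socs1, and 2 lower, Il7r among them. These genes answer to many cytokines.

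Of the progenitor and pro-B to pre-B cell list, 8 of 15 genes were tested in CD93-negative cells, and 3 were called higher and 1, Sox4, lower. Higher were Spn, which encodes CD43 of early and of activated B cells, at 11.0 ± 2.47 FPKM in control and 33.4 ± 3.38 in DKO-labelled libraries (SD, n = 3, 1.53, limma adjusted p = 4.08e-05), the stem cell factor receptor Kit (1.23, adjusted p = 0.000170) and the transcription factor Lef1 (0.56, adjusted p = 0.0154). After rescaling it was 2 higher and 1 lower. In CD93-positive cells none of 14 was called with the authors' scaling and 2 were at an unadjusted p under 0.05. After rescaling Spn was higher (0.64, adjusted p = 0.00652) and Il7r and Sox4 lower.

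Early B lineage transcription factors were called 3 higher and 1 lower of 16 in CD93-negative cells, at the share of all genes called higher, and their median log2 difference was 0.0052 beside 0.11 over all genes. Gfi1 (0.92, limma adjusted p = 0.00230), Irf8 (0.77, adjusted p = 0.00327) and Lef1 were higher, and Sox4 was lower. After rescaling 2 were higher and 10 lower. In CD93-positive cells none of 16 was called with the authors' scaling and 4 were at an unadjusted p under 0.05. Rescaling called 12 of 16 lower and none higher, among them Bach2, a repressor of plasma cell differentiation (-0.82, adjusted p = 0.00560), Pax5, which holds B cell identity (-0.58, adjusted p = 0.0137), and Runx1 (-0.57, adjusted p = 0.00580).

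Genes that rise with B cell maturation had calls only on the lower side in both populations. In CD93-negative cells 6 of 14 were called lower and none higher. Cr2, which encodes CD21, stood at 104 ± 11.8 FPKM against 43.0 ± 0.680 (SD, n = 3, -1.25, limma adjusted p = 2.97e-05), and Fcer2a, which encodes CD23, at 341 ± 35.9 against 167 ± 0.984 (-1.02, adjusted p = 0.000176). In CD93-positive cells 3 of 14 were called lower, Fcer2a (-1.41, adjusted p = 0.00808), Cr2 (-1.39, adjusted p = 0.000236) and Icosl (-1.23, adjusted p = 0.00755). After rescaling the lower calls were 10 and 9 of 14, with none higher in either population. Proliferation markers were called higher for 14 of 15 in CD93-negative cells with either scaling, as Mki67 at 6.26 ± 1.60 against 33.8 ± 1.76 FPKM. In CD93-positive cells 0 of 15 were called and 1 was at an unadjusted p under 0.05, and after rescaling 2 were higher, Mcm5 and Birc5. Of 4 related C-type lectins, Cd93 among them, only Cd93 passed the filter in CD93-negative cells. In CD93-positive cells 2 passed, and 0 were called or at an unadjusted p under 0.05.

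**Figure D5:**
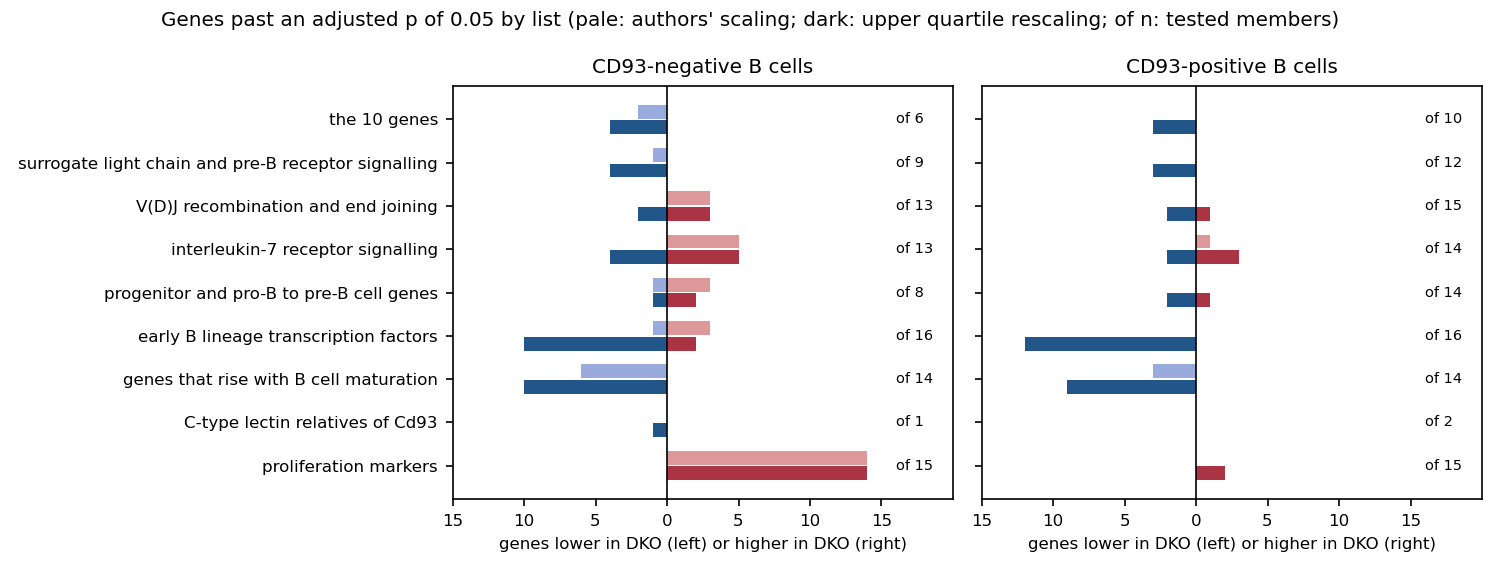
Genes called higher (right of 0) and lower (left of 0) in each list, with the authors' scaling and after upper quartile rescaling, in CD93-negative and CD93-positive cells, beside the number tested. Maturation genes have calls only on the lower side in both populations, 6 and 3 of 14 with the authors' scaling and 10 and 9 of 14 after rescaling.

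Markers of some other cells differed with the genotype label too, and their part in the results above was not tested. Among CD93-negative libraries, 7 of the 11 T cell markers tested, 6 of 8 plasma cell markers and 4 of 6 red cell markers were called higher. So were 3 of 4 macrophage markers, 1 of 8 NK and innate lymphoid markers and 1 of 3 endothelial markers. Of all tested genes 18.7% were called higher, so the NK count is below that share and the endothelial count is 1 gene. Of the 5 B cell markers limma called 0, and 0 were at an unadjusted p under 0.05. Summed FPKM of the markers was 33.1 to 55.5 in control and 64.5 to 71.4 in DKO-labelled libraries for T cells, 43.1 to 60.6 against 171 to 199 for red cells, and 286 to 386 against 837 to 910 for plasma cells. After rescaling 2 red cell markers were higher and 2 B cell markers, Pax5 and Cd79a, lower. Of all tested genes 17.1% were then called higher and 23.8% lower. None of 3 neutrophil markers was called, with 1 at an unadjusted p under 0.05. No platelet marker passed the filter, and Robo4 of the endothelial list was at 0 in all 6.

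In CD93-positive cells red cell markers were abundant and lower in the DKO-labelled libraries, with 7 of 9 called with the authors' scaling, 0 after rescaling and 5 of them then at an unadjusted p under 0.05. Their summed FPKM was 15092 to 64410 in control and 3318 to 15708 in DKO-labelled libraries. Neutrophil markers summed to 1695 to 2354 against 469 to 1475 FPKM, with 1 of 9 called lower and 6 after rescaling. Of the plasma cell markers 5 of 8 were called higher and none lower, with Igj, the joining chain of secreted antibodies, at 34.7 ± 7.01 against 923 ± 230.2 FPKM (SD, n = 3), and their sum was 378 to 517 against 1417 to 2530. After rescaling it was 6 higher and 1 lower. Of the 5 B cell markers limma called 0 with the authors' scaling, with 0 at an unadjusted p under 0.05, and 3 were lower after rescaling. NK and innate lymphoid markers were called higher for 2 of 8, and for 4 after rescaling, and T cell markers for 1 of 12. Of 9 macrophage, 3 endothelial and 3 platelet markers none was called, with 4, 0 and 1 at an unadjusted p under 0.05. The shares of all tested genes called in these cells were 1.67% higher and 1.54% lower, and 11.4% and 9.34% after rescaling.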

How the data were processed

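Per the labels' protocols, total RNA was purified on RNeasy micro columns and made into libraries with a SureSelect strand-specific kit. The build is mm9 and the tools named are TopHat2 2.0.8, Bowtie2 2.1.0 and Cufflinks 2.1.1, per the submitters' processing notes. The annotation, the handling of reads that map to several genes and any filter are not given in the sources used here. The authors deposited FPKM values, 1 column per library, in 1 table for CD93-negative and 1 for CD93-positive cells. A further 6 columns of the latter repeat used columns cell for cell and were left out, as were 1 and 2 rows without a gene name.

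Genes at 1 FPKM or more in at least 3 of the 6 libraries of a table (10960 CD93-negative, 11250 CD93-positive) entered a limma 3.58.1 fit (R 4.3.3) on log2(FPKM + 1) computed from the deposited values, with a mean-variance trend, two-sided, within each table, and adjusted by Benjamini and Hochberg over all tested genes at 0.05. A fold change on this scale understates that of low genes. In the CD93-positive fit with the authors' scaling all genes of a level shared 1 estimate of the spread. In a test on simulated data with the authors' scaling, 200 changed genes per comparison were drawn from those with a mean log2(FPKM + 1) above 2. In the CD93-negative comparison over 10960 genes, 92% of changes of 1 log2 unit and 97% of 2 were recovered. In the CD93-positive one over 11250 genes it was 4% and 77%. The noise of each gene was drawn independently, and recovery with the rescaling was not simulated. Depth is unknown, so no interval or floor is given. Replicates of a group had Pearson's r across genes of at least 0.953 (CD93-negative) and 0.934 (CD93-positive).

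The 10 genes, 8 further gene lists and 9 marker lists were chosen with earlier results of these data known. Named genes are the 10, Tet2 and Tet3, up to 4 called genes with the largest change per list and comparison, and for each of the 10 genes the 3 with the most similar pattern, from which a selection is given. A gene of the lists is left out of their counts and sums and is not reported here. The lists cover the surrogate light chain, recombination, interleukin-7 signalling, progenitors, transcription factors, maturation, C-type lectins and proliferation, and markers of B, T, NK, red, plasma and endothelial cells, neutrophils, macrophages and platelets. Alternatives were pseudocounts of 0.1 and 5, filters, rescaling to the upper quartile, quantile normalization, no trend, sample weights, a replicate block, sex as a covariate and each library left out. The sex covariate together with the rescaling was chosen after seeing the data.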

Additional observations from a re-analysis of the deposited data

How the results depend on the processing

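The number of genes called depended strongly on the scaling. In CD93-negative cells 2351 genes were called, against 4478 after upper quartile rescaling, 4198 after quantile normalization, 3689 with the replicate block and rescaling, 1368 to 3247 with 1 library left out and 3178 to 4054 with 1 library left out and rescaling. In CD93-positive cells 361 were called, against 2331 after rescaling, 2230 after quantile normalization, 783 with sample weights, 188 without the trend, 16 without a filter, 168 with a filter of 5 FPKM, 127 with sex as a covariate, 570 with sex and rescaling, 139 to 623 with 1 library left out and 862 to 2131 with 1 library left out and rescaling. Of the 10 genes, 2 were called in CD93-negative cells, against 1 without a filter, 1 without the trend, 4 after rescaling, 4 after quantile normalization, 4 with the block and rescaling, 0 to 2 with 1 library left out and 4 with 1 library left out and rescaling. In CD93-positive cells it was 0, against 3 after rescaling, 5 after quantile normalization, 1 with sample weights, 3 with the block and rescaling, 3 with sex and rescaling, 0 to 2 with 1 library left out and 3 to 4 with 1 library left out and rescaling. The cause of these shifts was not tested.

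With 3 libraries per group, the values cannot decide whether replicate numbers pair the libraries. The correlations of same-numbered deviations were 0.018, -0.111 and -0.088 in CD93-negative and 0.168, -0.093 and -0.114 in CD93-positive cells, and not every library correlated best with its own number. With the replicate block, 237 genes were called in CD93-positive cells and 898 with the block and rescaling. In CD93-negative cells the block with the authors' scaling called 2874 genes, against 2351 without it. Sox4 (limma adjusted p = 0.00446) and Vpreb3 (adjusted p = 0.0189) stayed called lower in that fit.

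Among single genes, Dntt in CD93-positive cells was at 0.17 after rescaling, 0.13 after quantile normalization, 0.30 with sample weights and 0.17 with the replicate block and rescaling. With 1 library left out it ran from -0.32 to 0.32, and from -0.013 to 0.52 when rescaled as well. Vpreb1 ran from -0.45 to 0.021, and from -0.14 to 0.22 when rescaled, and Igll1 from -0.58 to -0.069, and from -0.23 to 0.046. Il7r in CD93-negative cells ran from 0.19 to 0.37, and from -0.017 to 0.19 when rescaled. Depth is unknown, so no limit on the low values of Rag1, Rag2, Vpreb1 and Igll1 in CD93-negative cells can be given.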

Other observations

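Il7r divided by Cd93 in the same library was 0.512, 0.373 and 0.557 in control CD93-negative libraries. In the DKO-labelled ones it was 0.812, 0.698 and 0.731, higher and without overlap. Il7r by itself overlapped between these groups, at 1.74 to 2.50 against 2.43 to 3.13 FPKM. Cd93, the divisor, was called lower there after rescaling (-0.39, limma adjusted p = 0.0140). Sox4 divided by Cd93 was lower without overlap in these cells as well, at 1.79 to 2.01 against 1.20 to 1.69. The difference between the populations was not tested.

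Dntt divided by Igll1 was 0.302, 0.309 and 0.446 in control and 0.421, 0.414 and 0.443 in DKO-labelled CD93-positive libraries. The 4 female libraries lay at 0.414 to 0.446 and the 2 male libraries at 0.302 and 0.309. This was seen in the data first and was not tested.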
